A study of Mus musculus with 9 samples.

Results

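The 34 genes described here encode the glucose transporters, glycolytic and gluconeogenic enzymes, ketohexokinase and glycogen enzymes of the liver, with the isozymes that other cells use for the same steps. They were chosen by gene symbol and are 34 of the 54532 genes in the deposited table, where they occupy 35 rows because Aldoa has a second gene identifier. That second Aldoa row held 0 to 4 reads in every library and was not tested, and the other 34 rows all passed the filter on low values. By textbook use, 12 of the genes were counted as liver isozymes, 12 as isozymes of other cells and 10 as shared.

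Messenger RNA was measured in livers of wild-type male C57BL/6J mice in 3 groups of 3 libraries. Chow livers came from mice on a normal diet that were given vehicle. Vehicle livers came from mice on CDAA-HFD, a choline-deficient, amino-acid-defined, high-fat diet used to produce steatohepatitis, that were given vehicle. The 326E livers came from mice on CDAA-HFD that were given the compound 326E, an enedioic acid analogue that the series title describes as targeting ATP citrate lyase and PPARα, at 30 mg/kg for 6 weeks. Ages and the length of the diet are not given in the sources used here. Library titles begin with MCD in all groups, chow included, while the protocol names CDAA-HFD and is followed here. Whether the libraries come from separate animals is not stated in the labels, so p-values measure the spread between these libraries, which may be technical. Libraries held 13275888 to 17058316 reads assigned to genes. In a gene of 2 kb, 1 read was worth 0.0246 to 0.0455 FPKM (fragments per kilobase of gene, scaled to a library size), which limits the precision of low values. The library size behind the deposited FPKM was 0.828 to 0.860 times the assigned reads in chow. It was 1.04 to 1.19 times them in vehicle and 1.01 to 1.15 times in 326E libraries. Deposited chow values are thus higher, relative to the diet groups, than values scaled to total assigned reads.

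Hepatocytes take up glucose and fructose, burn or store them, and can also make glucose and release it. Some steps have separate enzymes for each direction, while the enzymes of the other steps serve both. The liver forms of several enzymes respond to feeding and fasting hormones and to the carbohydrate-sensing factor ChREBP, while macrophages, fibroblasts and dividing cells rely on other isozymes of the same steps. In a whole-liver library both sets are read together, so the ratio of 2 isozymes reads out the tissue and not 1 cell type.

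On CDAA-HFD most isozymes of other cells rose, and more liver isozymes fell than rose. Of the 12 isozymes of other cells, 9 rose in vehicle against chow livers (Pkm, Hk3, Slc2a1, Hk2, Aldoa, Ldhb, Pfkp, Hk1 and Eno3), 1 fell (Pfkm) and 2 did not pass the test. Of these 9, Hk1, Hk2 and Pfkp were under 0.5 FPKM in every chow library and entered the test only through the groups where they were high, so they had to differ and add no support to the count. With a filter on a mean of at least 1 FPKM, 8 in place of 11 of the 34 genes rose. Of the 12 liver isozymes, 1 rose (Pfkl), 5 fell (Pygl, Pklr, Khk, Fbp1 and Gckr) and 6 did not pass. Of the 10 shared genes, 1 rose (Pck2), 2 fell (Ppp1r3c and Pgk1) and 7 did not pass. In all 11 of the 34 genes rose and 8 fell, beside 41.6% of the 13737 genes tested that were called in this comparison, 20.8% higher and 20.8% lower. The median log2 fold change was 0.82 over the isozymes of other cells, -0.45 over the liver isozymes and -0.08 over the shared genes, beside -0.04 over all genes tested. Fold changes are differences of mean log2(FPKM+1), which understates the change of genes below a few FPKM, and the call is a limma test with an adjusted p below 0.05. Fewer cells of a type and less RNA per cell cannot be told apart in these whole-liver libraries.

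With 326E, 5 of the isozymes of other cells and no liver isozyme were called. The 5 fell in 326E against vehicle livers (Hk3, Pkm, Slc2a1, Hk2 and Pfkp), and the other 7 did not pass. Pck2 was the 1 shared gene that fell. Across the 34 genes 6 fell and 0 rose, beside 11.5% of all genes tested that were called, 4.96% higher and 6.50% lower. No gene of the set passed in the upward direction by limma or by voom, and 1, Pygl, did at an unadjusted p under 0.05. None of the 12 liver isozymes passed in limma, while 5 were lower and 1 higher at an unadjusted p under 0.05, and voom called 2 lower, Pck1 and Ppp1r3b. The liver class depended on the scaling: quantile normalization called Pck1 (-1.04, adjusted p = 0.00634), Fbp1 (-0.53, adjusted p = 0.0342) and Khk (-0.47, adjusted p = 0.0493) lower, and total reads called Pck1 (-0.74, adjusted p = 0.0269). Whether the classes differed in their response to 326E was not tested. The median log2 fold change over the liver isozymes was -0.37 and over the isozymes of other cells -0.30, beside -0.02 over all genes. Hk3 kept its call when any 1 library was left out, Pkm lost it without vehicle replicate 3, 326E replicate 2 or 326E replicate 3, and Slc2a1 without vehicle replicate 1, vehicle replicate 3 or 326E replicate 2. Hk2, Pck2 and Pfkp kept theirs in 5, 4 and 1 of the 9 fits that leave out 1 library.

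**Figure D1:**
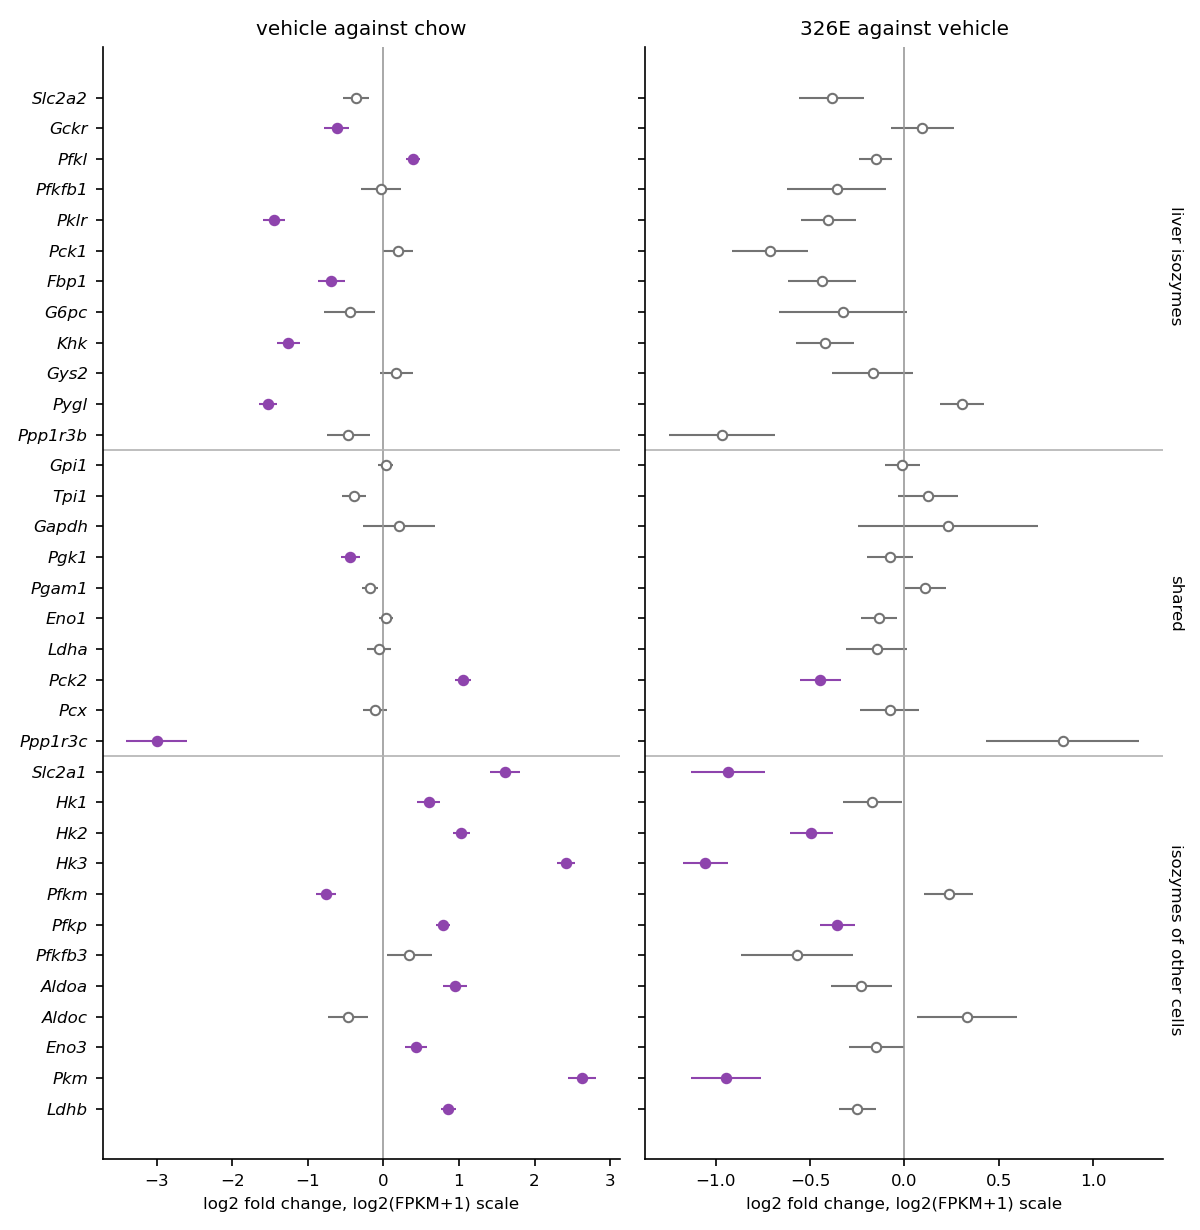
Log2 fold change of each of the 34 genes on the log2(FPKM+1) scale, with bars of 1 standard error, for vehicle against chow (left) and 326E against vehicle (right), which share the vehicle libraries. Filled points passed the limma test: 19 on the left, of which 11 lie to the right of 0, and 6 on the right, all below 0.

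The scaling between libraries bears on small changes. With FPKM rescaled to total assigned reads the median of all genes tested moved from -0.04 to 0.25 in vehicle against chow, and 15 of the genes rose and 5 fell. Fbp1 (-0.29), Gckr (-0.24) and Pgk1 (-0.04) lost their calls there, and Eno1 (0.43), Gpi1 (0.41), Gys2 (0.57) and Pck1 (0.59) gained one. Quantile normalization gave 13 higher and 6 lower. The signs of Ldha, Pcx, Pfkfb1, Pgam1, Slc2a2 and Tpi1, which were not called, turned with total reads, and no called gene changed sign there.

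Markers of other cells moved in the same comparisons. The counts stand beside 20.8% of all genes tested called higher and 20.8% lower on the diet. With 326E those shares were 4.96% higher and 6.50% lower. All 10 macrophage markers rose in vehicle livers and 7 fell with 326E, and their summed level was 139 to 163 FPKM in chow, 1189 to 1880 FPKM in vehicle and 604 to 1114 FPKM in 326E livers. Of 9 stellate cell and fibroblast markers 7 rose and 5 fell with 326E (summed 49.2 to 66.7, 241 to 353 and 156 to 184 FPKM). Of 5 tested neutrophil markers 4 rose and 1 fell with 326E (5.21 to 25.7, 34.2 to 60.5 and 18.6 to 32.1 FPKM), and of 4 tested cholangiocyte markers 3 rose and 0 fell (31.5 to 50.04, 112 to 325 and 79.8 to 137 FPKM). All 4 cell division markers rose and 1 fell with 326E (0.611 to 0.987, 5.45 to 5.93 and 4.02 to 4.61 FPKM). As these 4 genes together reached at most 0.987 FPKM in chow, most could pass the filter of 0.5 FPKM only through the diet groups. Their rise therefore adds no support. Of 10 hepatocyte markers 6 fell on the diet and 1 rose with 326E (46599 to 53738, 31330 to 46846 and 30310 to 41232 FPKM), so the libraries read as liver. Of 5 red blood cell markers Alas2 fell on the diet (-1.25) and rose with 326E (0.50), and the list summed to 491 to 1163, 329 to 550 and 331 to 751 FPKM. Of 4 fat cell markers 1 was tested, Cidec, which rose on the diet (3.15), and Lep was at 0 in all libraries (1.39 to 3.83, 18.0 to 37.2 and 25.5 to 39.2 FPKM). Of 5 resident Kupffer cell markers 2 rose and 1 fell on the diet and 1 rose with 326E (138 to 160, 156 to 236 and 156 to 269 FPKM). Of 6 endothelial markers 3 rose and 1 fell on the diet (39.4 to 46.6, 44.6 to 53.1 and 51.3 to 54.7 FPKM), and of 2 tested T and NK cell markers 1 rose (0.711 to 1.55, 2.14 to 5.60 and 1.54 to 5.48 FPKM). The tested T and NK cell markers, low in chow, may also have passed the filter only through the diet groups. Muscle markers summed to at most 0.45 FPKM, with Myh4 at 0 in all 9 libraries. The part of these cells in the isozyme changes was not tested.

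**Figure D2:**
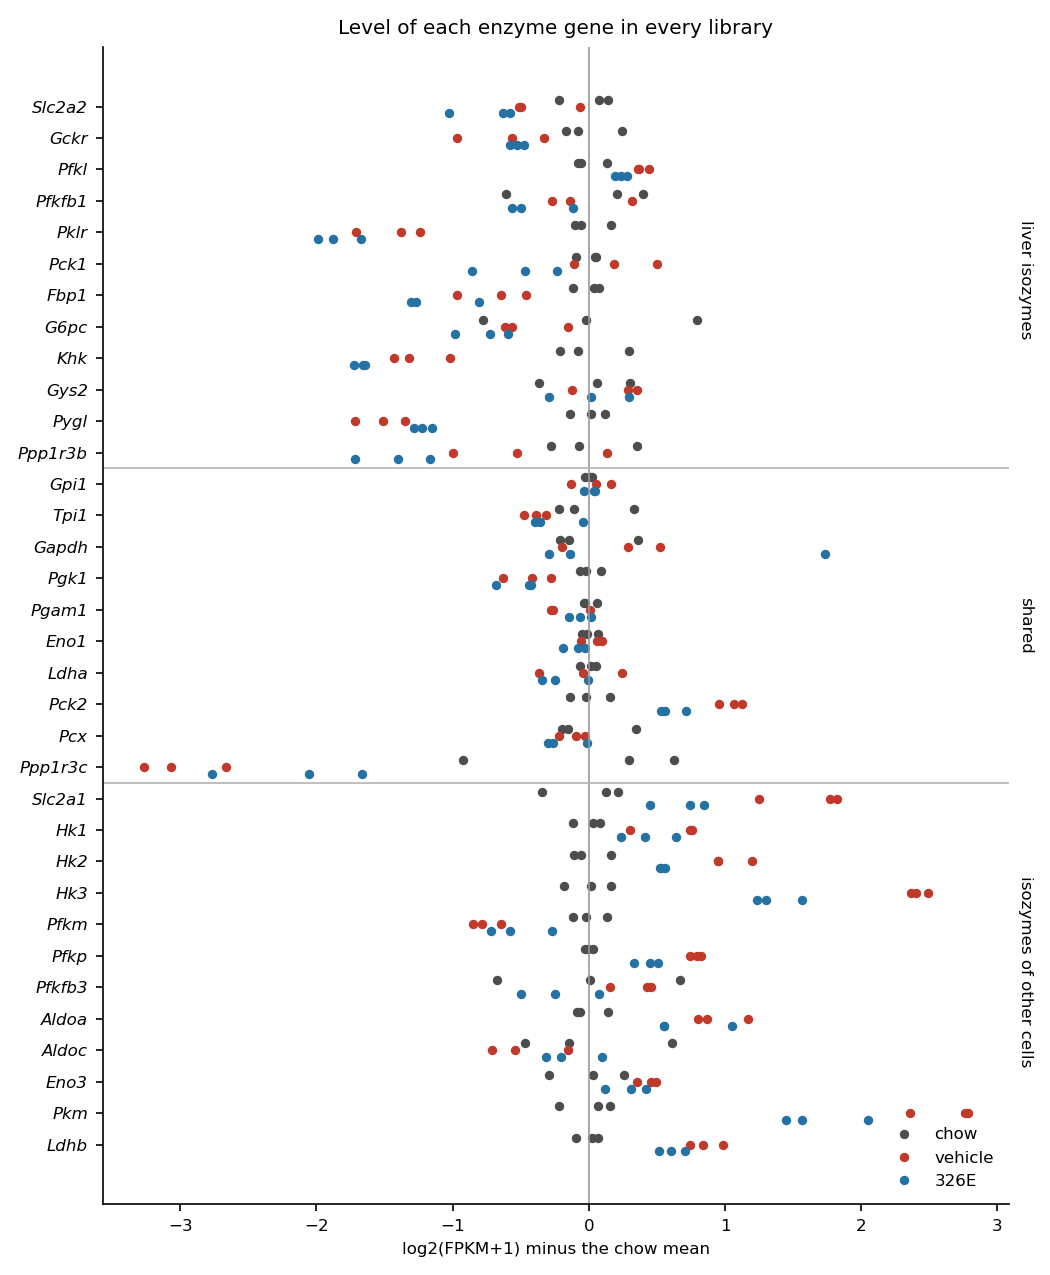
Level of each of the 34 genes in each of the 9 libraries, as log2(FPKM+1) minus the mean of the 3 chow libraries, by isozyme class. Vehicle points of Pkm, Hk3 and Slc2a1 lie furthest to the right with the 326E points between them and chow, while both groups lie left of chow for Pklr, Khk and Pygl, and 1 library of 326E stands apart for Gapdh.

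Glucose enters hepatocytes mainly through GLUT2, encoded by Slc2a2, and most other cells through GLUT1, encoded by Slc2a1. Slc2a1 was read at 2.67, 2.47 and 1.51 FPKM in chow, 9.85, 6.54 and 10.2 FPKM in vehicle and 4.31, 3.33 and 4.71 FPKM in 326E livers. The 3 groups did not overlap: every vehicle library was above every 326E library, and those above chow. Slc2a1 rose by 1.61 ± 0.20 (SE) in vehicle against chow (adjusted p = 0.000276) and fell by 0.93 ± 0.20 in 326E against vehicle (adjusted p = 0.0193). Slc2a2 stood at 103, 79.9 and 98.4 FPKM in chow, 65.0, 65.8 and 89.1 FPKM in vehicle and 45.3, 62.1 and 60.0 FPKM in 326E livers. Neither step of Slc2a2 passed (-0.36 ± 0.17, adjusted p = 0.129, and -0.39 ± 0.17, adjusted p = 0.185). Without vehicle replicate 3 its diet step was called (-0.51, adjusted p = 0.0484). It fell by 0.75 ± 0.17 in 326E against chow (adjusted p = 0.0133), a call lost with total reads (-0.38) and with quantile normalization (-0.45).

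Hexokinases trap glucose in the cell as its phosphate, and Gckr encodes the protein that holds the liver's glucose kinase inactive in the nucleus. Hk3, a hexokinase of myeloid cells, was at 1.22, 0.755 and 1.01 FPKM in chow, 10.2, 9.49 and 9.27 FPKM in vehicle and 4.89, 3.89 and 3.67 FPKM in 326E livers. It rose by 2.42 ± 0.12 on the diet (adjusted p = 4.91e-06), a 9.69-fold difference of mean FPKM, and fell by 1.05 ± 0.12 with 326E (adjusted p = 0.00203). The 3 groups were again apart, with 326E between the others. Hk2, the insulin-responsive hexokinase of muscle, fat and dividing cells, was at 0.143, 0.336 and 0.107 FPKM in chow, 1.30, 1.29 and 1.74 FPKM in vehicle and 0.759, 0.723 and 0.714 FPKM in 326E livers, resting on 7 to 179 reads. Hk2 rose by 1.03 ± 0.11 (adjusted p = 0.000158) and fell by 0.49 ± 0.11 with 326E (adjusted p = 0.0263). Hk1, the hexokinase of brain and red cells, rose by 0.60 ± 0.15 on the diet (adjusted p = 0.0131), from 0.288 to 0.472 FPKM in chow to 0.716 to 1.36 FPKM in vehicle, and its difference with 326E was -0.17 ± 0.15 (adjusted p = 0.516). Quantile normalization ended the call of Hk1 on the diet (0.39, adjusted p = 0.0544). Both Hk1 and Hk2 passed the filter only through the diet groups, so their rises add no support. Gckr fell by 0.62 ± 0.17 on the diet (adjusted p = 0.0158), from 25.7 to 34.5 FPKM to 14.3 to 22.8 FPKM, without that call when chow replicate 2 was left out (adjusted p = 0.0509). With 326E it stood at 19.0 to 20.6 FPKM (0.09 ± 0.17, adjusted p = 0.757).

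The sum of Hk1, Hk2 and Hk3 was 1.84, 1.52 and 1.41 FPKM in chow, 12.2, 12.1 and 12.3 FPKM in vehicle and 6.82, 5.47 and 5.03 FPKM in 326E livers. Hk3 made up 49.8% to 72.0% of it in chow, 75.1% to 83.5% in vehicle and 71.2% to 73.0% in 326E livers, so the myeloid form was the most abundant of the 3 in every library.

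The 250 bases before the RefSeq start of Slc2a1, chr4:119108495-119108744 (plus strand), and of Hk3, chr13:55021386-55021635 (minus strand), on GRCm38.p6, are shown as examples of genes that rose on the diet and fell with 326E. Capitals mark ACGTG or its complement, the core letters of the hypoxia response element, found at base -36 of Slc2a1 and base -156 of Hk3.
Slc2a1: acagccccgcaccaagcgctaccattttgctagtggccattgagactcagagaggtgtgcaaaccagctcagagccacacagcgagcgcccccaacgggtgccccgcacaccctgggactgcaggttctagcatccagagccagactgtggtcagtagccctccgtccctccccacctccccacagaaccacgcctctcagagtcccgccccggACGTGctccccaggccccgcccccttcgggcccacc
Hk3: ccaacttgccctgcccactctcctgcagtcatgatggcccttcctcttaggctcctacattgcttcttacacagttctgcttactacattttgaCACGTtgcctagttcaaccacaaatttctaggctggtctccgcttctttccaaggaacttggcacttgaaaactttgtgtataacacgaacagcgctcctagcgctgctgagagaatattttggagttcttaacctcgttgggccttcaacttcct
These letters were searched on both strands and occur in 19.6% of the 32851 RefSeq promoter windows, each from 250 bases before to 50 after a start, so a match describes the sequence only. Among the other genes that rose and fell in this way, they are in the windows of Hk2 and the downstream window of Pkm. The windows of Pfkp and Pck2 and the upstream window of Pkm lack them.

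**Figure D3:**
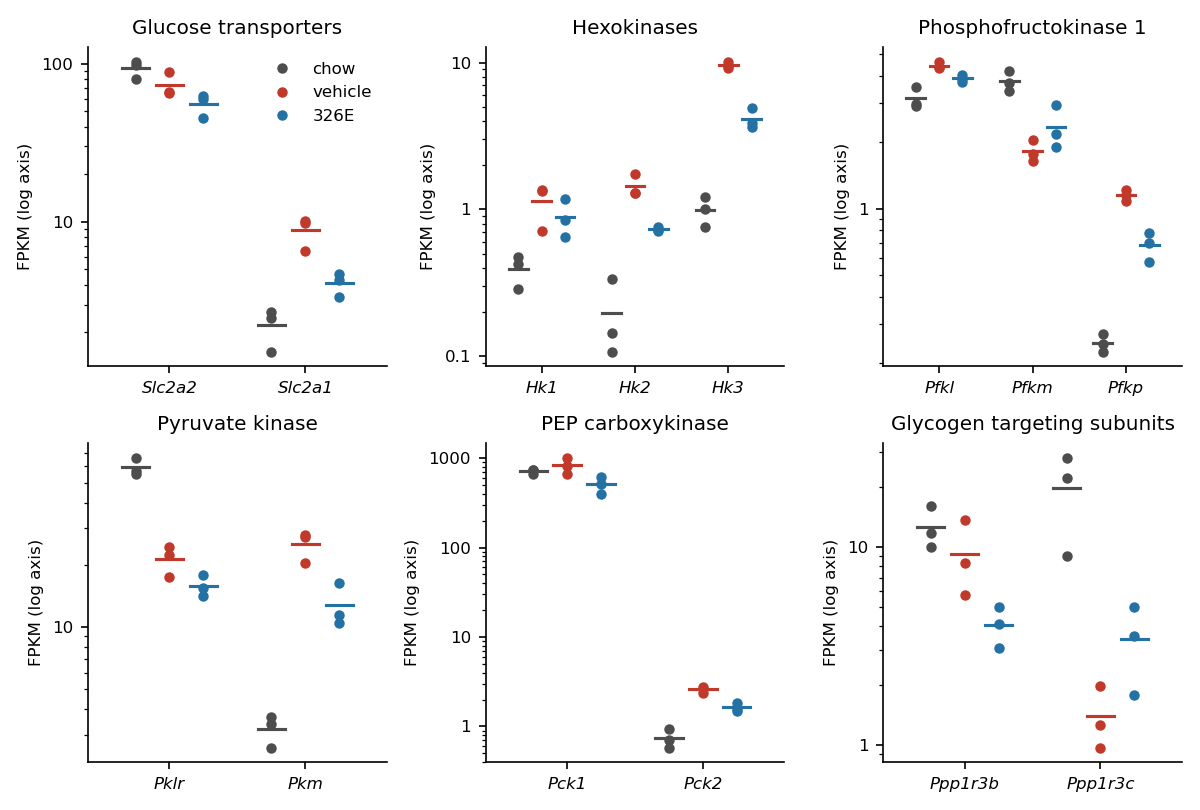
FPKM of the isozymes of 6 steps in each library on log axes, with the group mean as a bar. For the transporters, hexokinases and pyruvate kinases the isozymes of other cells (Slc2a1, Hk3 and Pkm) are highest in vehicle livers and lower in 326E livers, while Pklr is lower in both diet groups than in chow, and Ppp1r3c is lowest in vehicle livers.

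Phosphofructokinase commits sugar to glycolysis, and its liver, muscle and platelet subunits moved in different directions on the diet. Pfkl, the liver subunit, rose by 0.39 ± 0.09 (adjusted p = 0.00655), from 2.98, 3.56 and 2.93 FPKM in chow to 4.64, 4.36 and 4.32 FPKM in vehicle livers. Pfkm, the muscle subunit, fell by 0.76 ± 0.13 (adjusted p = 0.00165), from 4.22, 3.40 and 3.71 FPKM to 1.65, 1.77 and 2.05 FPKM, against the direction of most isozymes of other cells. Pfkp, the platelet subunit, rose by 0.79 ± 0.09 (adjusted p = 0.000201), from 0.243, 0.225 and 0.272 FPKM to 1.16, 1.21 and 1.08 FPKM. Pfkp was under 0.5 FPKM in every chow library and entered the test only through the diet groups, so its rise adds no support. Chow and vehicle libraries did not overlap for Pfkl or Pfkm. With 326E, Pfkp fell by 0.35 ± 0.09 (adjusted p = 0.0379) to 0.777, 0.702 and 0.572 FPKM, a call kept in 5 of 19 alternatives, while Pfkl (-0.15 ± 0.09) and Pfkm (0.23 ± 0.13) did not pass. Of the coding transcript of Pfkp, 16.0% of 100-base windows are also in Pitrm1, which overlaps it and stood at 7.18 to 11.3 FPKM, so reads of the 2 genes could be confused.

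Pfkfb1 and Pfkfb3 encode the liver and the inducible form of the enzyme that makes and removes the activator of phosphofructokinase, and neither was called. Pfkfb3 stood at 3.06 to 9.34 FPKM in chow, 6.24 to 7.90 FPKM in vehicle and 3.61 to 5.85 FPKM in 326E livers (-0.57 ± 0.30 in 326E against vehicle, adjusted p = 0.248). Pfkfb1 stood at 4.76 to 10.5, 6.25 to 9.91 and 4.93 to 7.10 FPKM. Every 326E library was below every vehicle library for Pfkfb3, and the groups of Pfkfb1 overlapped. Without chow replicate 2 Pfkfb3 was called higher on the diet (0.68, against 0.35 with all libraries; adjusted p = 0.0491). Without chow replicate 1 Pfkfb1 was called lower in 326E against chow (-0.69, against -0.39; adjusted p = 0.0455).

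Aldolase splits the sugar in the middle of the pathway. Aldoa, the form of muscle and most cells, rose by 0.95 ± 0.16 on the diet (adjusted p = 0.00164), from 26.6, 30.8 and 26.2 FPKM to 49.3, 51.5 and 63.9 FPKM. With 326E it stood at 58.8, 41.2 and 41.2 FPKM, overlapping vehicle (-0.23 ± 0.16, adjusted p = 0.393) and still above chow (0.72 ± 0.16, adjusted p = 0.0111). Aldoa had the highest level per length of the 12 isozymes of other cells in every library. Aldoc, the brain form, was not called, at 2.45 to 6.29, 1.91 to 3.29 and 2.83 to 4.11 FPKM.

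The trunk enzymes from glucose phosphate isomerase to enolase, and Ldha, serve both directions of the pathway in all cells. Of 7 trunk genes, Pgk1, phosphoglycerate kinase, fell by 0.44 ± 0.12 on the diet (adjusted p = 0.0194), from 119 to 132 FPKM to 80.2 to 103 FPKM, and 6 did not pass. That call was lost without chow replicate 2, without vehicle replicate 2, with total reads and with quantile normalization (-0.04 in both). None of the 7 passed in 326E against vehicle. Of all genes tested, 41.6% were called on the diet and 11.5% with 326E. Eno1 (84.3 to 91.8, 83.9 to 93.7 and 76.4 to 86.0 FPKM) and Gpi1 (17.8 to 18.5, 16.6 to 20.6 and 17.8 to 18.8 FPKM) had the smallest ratios of highest to lowest library of the 34 genes. Tpi1 ran at 90.0 to 132, 75.0 to 84.1 and 79.4 to 102 FPKM, Pgam1 at 79.4 to 85.0, 66.9 to 82.1 and 73.7 to 82.2 FPKM, and Ldha at 188 to 204, 153 to 233 and 155 to 196 FPKM.

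Gapdh stood far below its neighbours in the pathway, at 0.787, 0.710 and 1.54 FPKM in chow, 1.85, 0.726 and 1.42 FPKM in vehicle and 0.616, 0.803 and 5.58 FPKM in 326E livers. The third library of 326E was 9.06 times the lowest of its group, and no comparison passed. Of the 100-base windows of its coding transcript, 85.8% also occur in other annotated genes. Over all annotated transcripts of Gapdh, windows are shared with 89 other genes, of which 82 are pseudogenes. Those other genes summed to 28.5 to 47.0 FPKM in chow, 12.7 to 20.9 FPKM in vehicle and 21.2 to 25.3 FPKM in 326E livers. How reads that match several genes were counted is not given in the sources used here, so the level of Gapdh is uncertain. The same holds in part for Pgk1 (67.0% of windows shared), Eno1 (59.0%) and Pgam1 (39.7%), whose partners summed to at most 1.31, 12.2 and 2.62 FPKM.

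**Figure D4:**
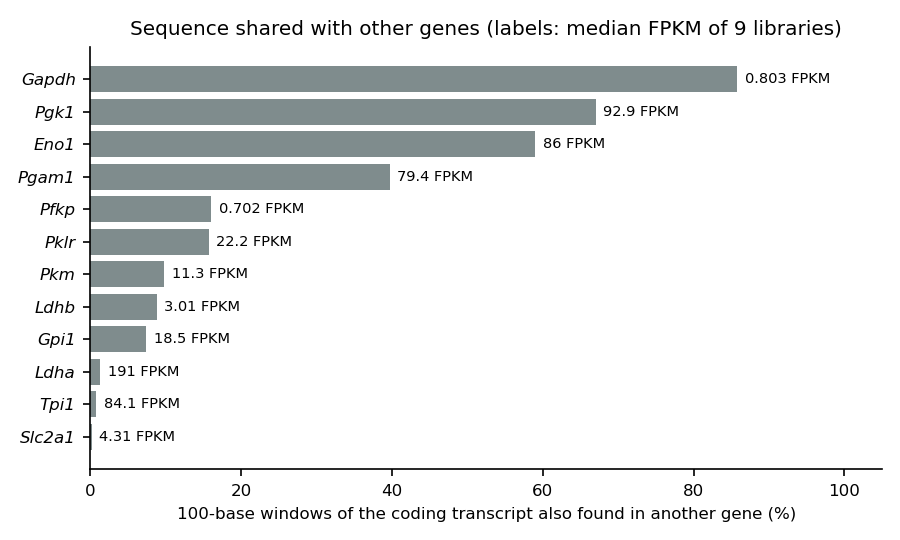
Share of 100-base windows of the coding transcript that occur, letter for letter on either strand, in another annotated gene, for the 12 genes with any, with the median FPKM of the 9 libraries as the label. Gapdh shares 85.8% and has a median of 0.803 FPKM, while Pgk1 (67.0%) and Eno1 (59.0%) have medians of 92.9 and 86.0 FPKM.

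Pyruvate kinase ends glycolysis, as Pklr in hepatocytes and red cells and as Pkm in most other cells. Pklr was at 56.8, 55.0 and 66.3 FPKM in chow, 17.4, 24.4 and 22.2 FPKM in vehicle and 14.1, 15.4 and 17.9 FPKM in 326E livers. It fell by 1.44 ± 0.14 on the diet (adjusted p = 9.39e-05), and its further difference with 326E did not pass (-0.40 ± 0.14, adjusted p = 0.105) except without vehicle replicate 1 (-0.54, adjusted p = 0.0480). The highest 326E library was just above the lowest vehicle library, and both groups were below every chow library. Of the coding transcript of Pklr, 15.7% of windows are shared with its neighbour Hcn3, at 0.150 to 5.87 FPKM. Pkm was at 3.38, 3.64 and 2.58 FPKM in chow, 20.4, 27.4 and 27.7 FPKM in vehicle and 16.3, 10.4 and 11.3 FPKM in 326E livers. It rose by 2.63 ± 0.19 on the diet (adjusted p = 1.67e-05), a 7.86-fold difference of mean FPKM, and fell by 0.95 ± 0.19 with 326E (adjusted p = 0.0148), with no overlap between any 2 groups. In 326E against chow Pkm was higher by 1.69 ± 0.19 (adjusted p = 0.000389) and Pklr lower by 1.85 ± 0.14 (adjusted p = 9.49e-05).

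The promoters of the 2 pyruvate kinases are shown because their genes moved apart. The Pklr bases lie before the downstream of 2 RefSeq starts, chr3:89136373-89136622 (plus strand), and the Pkm bases before the upstream of 2, chr9:59656326-59656575 (plus strand), on GRCm38.p6. Capitals mark the match to the carbohydrate response element and the TATA box TATAAA in Pklr, at bases -170 and -31, and the GC box GGGCGG at base -70 in Pkm.
Pklr: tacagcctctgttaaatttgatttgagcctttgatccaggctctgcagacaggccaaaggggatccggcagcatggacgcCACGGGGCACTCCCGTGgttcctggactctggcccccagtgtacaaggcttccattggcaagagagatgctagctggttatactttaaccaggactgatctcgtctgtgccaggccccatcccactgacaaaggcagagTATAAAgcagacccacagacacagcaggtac
Pkm: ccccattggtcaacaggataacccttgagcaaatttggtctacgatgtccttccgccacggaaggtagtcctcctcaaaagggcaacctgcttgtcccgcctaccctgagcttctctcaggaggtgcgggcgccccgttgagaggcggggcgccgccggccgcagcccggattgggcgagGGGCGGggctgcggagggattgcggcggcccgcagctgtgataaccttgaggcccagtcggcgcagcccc
The carbohydrate response element, a pair of E-box motifs that ChREBP binds, searched on both strands, was found in 0.119% of the 32851 windows and in 1 of the 49 windows of these genes. TATAAA and GGGCGG, also searched on both strands, occur in 13.6% and 35.7% of all windows.

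Lactate dehydrogenase joins pyruvate and lactate, and the heart subunit rose while the main liver subunit did not pass. Ldhb rose by 0.86 ± 0.10 on the diet (adjusted p = 0.000190), from 1.48, 1.77 and 1.68 FPKM in chow to 3.43, 4.23 and 3.73 FPKM in vehicle livers. At 2.78, 3.31 and 3.01 FPKM with 326E it lay below every vehicle library without passing (-0.25 ± 0.10, adjusted p = 0.135). Eno3, the muscle enolase, rose by 0.43 ± 0.15 (adjusted p = 0.0398), from 0.680 to 1.47 FPKM to 1.64 to 1.90 FPKM, on 13 to 67 reads, and was called in 9 of 20 alternatives.

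Gluconeogenesis runs through pyruvate carboxylase, PEP carboxykinase, fructose bisphosphatase and glucose phosphatase. Pck1, the cytosolic PEP carboxykinase, was the most abundant of the 34 genes in every library, at 739, 742 and 670 FPKM in chow, 663, 815 and 1014 FPKM in vehicle and 518, 395 and 608 FPKM in 326E livers. Every 326E library was below every vehicle and chow library, but Pck1 did not pass in 326E against vehicle (-0.71 ± 0.20, adjusted p = 0.0535) or 326E against chow (-0.52 ± 0.20, adjusted p = 0.0891), and was called in 6 of 20 alternatives in the comparison with vehicle. In 326E against chow its value was -0.15 with total reads and 0.13 with quantile normalization, so the direction turned. On the diet Pck1 was not called (0.19 ± 0.20, adjusted p = 0.481). It was called higher there under total reads (0.59, adjusted p = 0.0215). Quantile normalization also called it higher (1.17, adjusted p = 0.000733). Pck2, the mitochondrial form, rose by 1.05 ± 0.11 on the diet (adjusted p = 0.000104), from 0.576, 0.930 and 0.711 FPKM to 2.79, 2.62 and 2.36 FPKM. It fell by 0.45 ± 0.11 with 326E (adjusted p = 0.0302), to 1.85, 1.56 and 1.5 FPKM, a call kept in 11 of 20 alternatives. No group of Pck2 overlapped another.

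Fbp1, the liver fructose bisphosphatase, fell by 0.69 ± 0.18 on the diet (adjusted p = 0.0136), from 588, 574 and 516 FPKM to 358, 286 and 406 FPKM, and that change was 0.0573 with quantile normalization. With 326E it was at 225, 232 and 319 FPKM, overlapping vehicle (-0.44 ± 0.18, adjusted p = 0.148) and lower than chow by 1.13 ± 0.18 (adjusted p = 0.00225). G6pc, the phosphatase that frees glucose, spanned 102 to 304 FPKM in chow, 114 to 157 FPKM in vehicle and 87.7 to 115 FPKM in 326E livers, and no comparison passed. Its chow libraries differed by 2.99-fold, more than the difference between group means. Without chow replicate 2, the lowest of them, G6pc was called lower in vehicle against chow (-0.83, against -0.44 with all libraries; adjusted p = 0.0347) and in 326E against chow (-1.16, against -0.77; adjusted p = 0.0157). Pcx, pyruvate carboxylase, was at 88.4 to 129, 86.9 to 99.5 and 82.2 to 100 FPKM and was not called.

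Khk encodes ketohexokinase, the first enzyme of fructose use. It was at 131, 170 and 119 FPKM in chow, 54.7, 50.7 and 67.7 FPKM in vehicle and 43.1, 41.1 and 43.6 FPKM in 326E livers. It fell by 1.26 ± 0.15 on the diet (adjusted p = 0.000264), and although all 3 libraries of 326E lay below those of vehicle, that step did not pass (-0.42 ± 0.15, adjusted p = 0.110). Khk was 3.28-fold lower in 326E than in chow livers by mean FPKM (-1.68 ± 0.15, adjusted p = 0.000161).

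Among the glycogen genes Pygl and Ppp1r3c fell on the diet. Pygl, the liver phosphorylase that breaks glycogen down, fell by 1.53 ± 0.12 (adjusted p = 2.37e-05), from 69.9, 83.7 and 77.7 FPKM to 22.7, 26.3 and 29.5 FPKM. Gys2, the liver synthase that builds it, did not pass, at 103, 76.8 and 122 FPKM in chow, 127, 91.0 and 121 FPKM in vehicle and 80.6, 99.99 and 122 FPKM in 326E livers. With 326E Pygl was at 32.2, 31.0 and 34.1 FPKM, above every vehicle library without passing (0.31 ± 0.12, adjusted p = 0.123).

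Ppp1r3b and Ppp1r3c encode subunits that bring protein phosphatase to glycogen and favour its synthesis. Ppp1r3c was at 22.3, 28.3 and 9.0 FPKM in chow, 0.967, 1.99 and 1.26 FPKM in vehicle and 3.56, 4.99 and 1.78 FPKM in 326E livers. It fell by 3.0 ± 0.40 on the diet (adjusted p = 0.000455), the largest change of the 34 genes on this scale and 14.1-fold by mean FPKM. With 326E it overlapped vehicle (0.84 ± 0.40, adjusted p = 0.213) and was below chow by 2.16 ± 0.40 (adjusted p = 0.00485). Ppp1r3b, the main liver form, was at 10.0, 16.1 and 11.7 FPKM in chow, 8.31, 13.7 and 5.70 FPKM in vehicle and 4.07, 4.96 and 3.08 FPKM in 326E livers. It did not pass on the diet (-0.46 ± 0.28, adjusted p = 0.221) or in 326E against vehicle (-0.97 ± 0.28, adjusted p = 0.0584), but was below chow by 1.43 ± 0.28 with 326E (adjusted p = 0.00631). Without vehicle replicate 2 it was called lower on the diet (-0.76, adjusted p = 0.0361). In 326E against vehicle it was called in 4 of 20 alternatives, among them voom (adjusted p = 0.0361) and the fit without vehicle replicate 3 (-1.23, adjusted p = 0.0329).

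The promoters of Khk, chr5:30921309-30921558 (plus strand), and Ppp1r3c, chr19:36736605-36736854 (minus strand), on GRCm38.p6, are shown because these genes fell on the diet and each holds the E-box CACGTG, in capitals, at bases -71 and -104.
Khk: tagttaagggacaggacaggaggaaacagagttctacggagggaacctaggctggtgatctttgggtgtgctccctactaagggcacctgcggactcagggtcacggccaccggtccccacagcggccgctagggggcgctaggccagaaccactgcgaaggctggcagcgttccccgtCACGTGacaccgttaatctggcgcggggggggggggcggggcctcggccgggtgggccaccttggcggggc
Ppp1r3c: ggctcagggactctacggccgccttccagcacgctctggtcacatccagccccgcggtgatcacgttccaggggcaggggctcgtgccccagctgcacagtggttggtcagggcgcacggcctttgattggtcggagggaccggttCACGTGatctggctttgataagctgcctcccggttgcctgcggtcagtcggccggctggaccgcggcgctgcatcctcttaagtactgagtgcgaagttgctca
CACGTG reads the same on both strands, contains the hypoxia core ACGTG, and was found in 6 of 49 windows of these genes and in 7.15% of all windows. The other 4 genes with it, Ldha, Pcx, Pfkfb3 and Pfkm, include 1 that fell, Pfkm, and 3 that were not called.

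Among all 34 genes, 32 had RefSeq windows, 49 in all, and Gys2 and Ppp1r3b had none. The HNF1 core motif GTTAAT, on either strand, was in 5 of 14 windows of liver isozymes (G6pc, Gckr, Khk, Pck1 and Pfkfb1), in 0 of 21 of isozymes of other cells and in 0 of 14 of shared genes, beside 7.10% of all windows. ACGTG was in 2 of 14, 12 of 21 and 6 of 14 windows. The median GC content was 53.8% for liver isozymes, 59.0% for isozymes of other cells and 59.5% for shared genes, beside 52.7% of all windows. The perfect PPAR direct repeat, on either strand, was in 0 of the 49 windows and 0.0396% of all, which says only that these letters are not in these bases.

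Isozyme shares within a library do not depend on the scaling between libraries. Pkm made up 5.61%, 6.21% and 3.75% of the summed FPKM of Pkm and Pklr in chow, 54.0%, 52.9% and 55.6% in vehicle and 53.6%, 40.4% and 38.8% in 326E livers. The log2 ratio of Pkm to Pklr was 4.46 ± 0.24 (SE) higher in vehicle than in chow, and 326E overlapped vehicle (-0.58 ± 0.28). Slc2a1 made up 2.53%, 2.99% and 1.51% of the 2 transporters in chow, 13.2%, 9.04% and 10.3% in vehicle and 8.70%, 5.09% and 7.28% in 326E livers, with no overlap between groups. Ppp1r3c made up 69.0%, 63.7% and 43.5% of the 2 targeting subunits in chow, 10.4%, 12.7% and 18.1% in vehicle and 46.7%, 50.1% and 36.7% in 326E livers. That ratio was 3.22 ± 0.54 lower on the log2 scale in vehicle than in chow and 2.36 ± 0.36 higher in 326E than in vehicle, where the groups did not overlap.

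Pfkm and Pfkp together made up 59.9%, 50.4% and 57.6% of phosphofructokinase in chow, 37.7%, 40.6% and 42.0% in vehicle and 39.8%, 42.6% and 48.4% in 326E livers, so here the share of the liver subunit was the larger in both diet groups. Ldhb made up at most 2.69% of lactate dehydrogenase and Pck2 at most 0.419% of PEP carboxykinase in any library, although both shares were higher in all diet libraries than in chow. The exact permutation test over the 3 groups (1680 arrangements) gave p = 0.00357 for transporters, 0.00714 for pyruvate kinase, 0.0107 for targeting subunits, 0.0143 for phosphofructokinase, 0.0250 for lactate dehydrogenase and 0.0321 for PEP carboxykinase. Adjusted over the 8 ratios these exact permutation p-values were 0.0286 for the first 4, 0.0400 and 0.0429, while enolase (p = 0.0786, adjusted 0.0898) and the Pfkfb pair (p = 0.336) did not pass. Between 2 groups of 3 the two-sided exact test cannot go below p = 0.1, which was reached by every pair of groups without overlap, and adjusted over 24 such tests none passed (smallest 0.171).

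**Figure D5:**
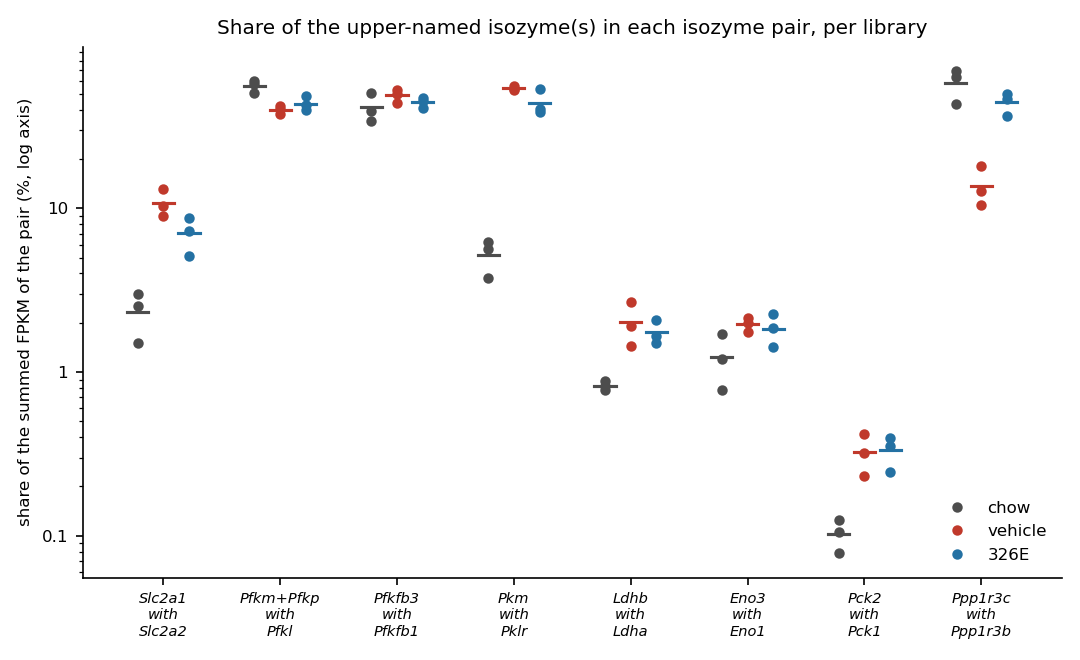
Share of the upper-named isozyme in the summed FPKM of each isozyme pair, in percent on a log axis, for each library, with the group mean as a bar. The share of Pkm is 3.75% to 6.21% in chow and 52.9% to 55.6% in vehicle livers, and that of Ppp1r3c is 43.5% to 69.0% in chow, 10.4% to 18.1% in vehicle and 36.7% to 50.1% in 326E livers.

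Against chow, 7 of 12 isozymes of other cells were higher and 7 of 12 liver isozymes were lower in 326E livers. Of the higher ones, Hk2 and Pfkp were under 0.5 FPKM in every chow library and entered the test only through the diet groups. They had to differ and add no support to the count. Of the 34 genes 8 were higher and 10 lower, beside 26.8% of all genes tested that were called, 14.4% higher and 12.5% lower. Of the isozymes of other cells 7 were higher, Pkm (1.69), Hk3 (1.37), Aldoa (0.72), Slc2a1 (0.68), Ldhb (0.61), Hk2 (0.54) and Pfkp (0.43), with Pfkm lower (-0.52). Of the liver isozymes 7 were lower, Pklr (-1.85), Khk (-1.68), Ppp1r3b (-1.43), Pygl (-1.22), Fbp1 (-1.13), Slc2a2 (-0.75) and Gckr (-0.53), and 0 were higher in limma or voom, with 1 higher at an unadjusted p under 0.05. With total reads 11 were higher and 6 lower, the median of all genes moving from -0.02 to 0.24, and with quantile normalization 5 were higher and 7 lower. Among these calls Gckr held in 2, Slc2a1 in 5, Pfkm in 6 and Pgk1 in 8 of the 9 fits that leave out 1 library (Slc2a1 was lost without chow replicate 2 or 3 or 326E replicate 1 or 3, Pfkm without chow replicate 1 or 326E replicate 1 or 2, Pgk1 without 326E replicate 2, and Gckr held only without vehicle replicate 2 or 3). This comparison shares its libraries with the other 2.

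The summed FPKM of the 12 liver isozymes was 2008, 1946 and 2025 in chow, 1460, 1559 and 1907 in vehicle and 1097, 997 and 1354 in 326E livers. That of the 12 isozymes of other cells was 48.3, 60.6 and 46.0 in chow, 108, 117 and 134 in vehicle and 101, 75.5 and 79.1 in 326E livers. The liver sum was thus the larger in all 9 libraries, with Pck1 its largest part. These sums do not compare isozymes, as Pck1, Fbp1, G6pc, Khk, Gys2 and Pygl have no counterpart among the isozymes of other cells. By step, Slc2a2 was above Slc2a1 in every library. Pkm was above Pklr in every vehicle library, and Pfkm with Pfkp above Pfkl in every chow library.

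Other genes of these pathways were taken from lists, of which 36.4% to 54.5% of the tested genes were called on the diet. With 326E, 9.09% to 20.0% of each list were called. Of all genes tested 41.6% were called on the diet and 11.5% with 326E, and no list was tested as a set. In the pentose phosphate branch, which makes NADPH, 2 of 8 genes rose on the diet, G6pdx (1.34 ± 0.19) and Pgd (1.29 ± 0.11), and 2 fell, H6pd (-0.99 ± 0.11) and Rpe (-0.40 ± 0.10). Pgd, at 4.61 to 5.08 FPKM in chow and 12.6 to 13.6 FPKM in vehicle, fell by 0.46 ± 0.11 with 326E to 8.24 to 11.2 FPKM, the 1 call of that list. Of 18 tested further isozymes and transporters, 3 rose and 5 fell on the diet. Slc16a7 (1.41 ± 0.20) and Slc16a3 (1.21 ± 0.13), carriers of lactate and pyruvate, had the largest values, and Ldhd (-1.36 ± 0.14), the D-lactate dehydrogenase, and Slc2a5 (-1.09 ± 0.17), the fructose transporter, fell most. Slc16a3 (0.029 to 0.154 FPKM in chow and 1.14 to 1.76 FPKM in vehicle) and Pfkfb4, the third of the rising genes (0.112 to 0.302 and 1.27 to 1.69 FPKM), passed the filter only through the diet groups, so their rise adds no support.

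With 326E, 2 of those 18 fell, Slc16a3 (-0.63 ± 0.13) and Pfkfb4 (-0.54 ± 0.13). The 1 call upward was Fbp2, the muscle fructose bisphosphatase, at 0.316, 0 and 0.0620 FPKM in chow, 0.333, 0.536 and 0.0790 FPKM in vehicle and 5.62, 5.50 and 4.33 FPKM in 326E livers. It entered the test only through the 326E group, so the call had to follow and the levels are given as a description: every 326E library was above all others. Muscle markers summed to 0.127 to 0.45 FPKM in those libraries, and Fbp1 was not called in the same comparison.

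Of 23 tested further glycogen genes 6 rose and 6 fell on the diet, and 3 rose and 1 fell with 326E. These are 52.2% and 17.4% called, beside 41.6% and 11.5% of all genes tested. Ppp1r3g, another targeting subunit, rose by 3.87 ± 0.29 on the diet, from 0.431, 0.688 and 0.777 FPKM to 13.2, 35.3 and 24.9 FPKM, while Ppp1r3c fell. With 1 chow library under 0.5 FPKM, Ppp1r3g passed the filter only with the diet groups, so its levels are given as a description. Ppp1r3g stood at 14.5, 11.2 and 15.1 FPKM with 326E and was not called there. Pgm1, at 1.97 to 2.50 FPKM in chow, rose by 1.29 ± 0.15 to 5.36 to 7.84 FPKM in vehicle. It fell by 0.73 ± 0.15 to 2.99 to 4.12 FPKM with 326E, and Pgm2 fell by 0.56 ± 0.14 on the diet. Both are named by their deposited symbols, and which of them is the main glycogen enzyme was not examined. Ppp1r3e, another targeting subunit, rose by 0.50 ± 0.13 with 326E. Stbd1, which tethers glycogen for breakdown in lysosomes, fell by 0.54 ± 0.16 on the diet and rose by 0.95 ± 0.16 with 326E, and Gaa, the lysosomal glucosidase, fell by 0.32 ± 0.10 and rose by 0.42 ± 0.10.

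Of 15 tested genes of fructose, polyol, galactose and glycerol entry, 3 rose and 5 fell on the diet, and 3 rose and 0 fell with 326E. These are 53.3% and 20.0% called, beside 41.6% and 11.5% of all genes tested. Akr1b8 and Akr1b3, of the aldose reductase family, rose by 1.93 ± 0.23 and 0.99 ± 0.14, with Akr1b8 at 0.789 to 1.86 FPKM in chow and 6.08 to 9.95 FPKM in vehicle. Tkfc, the triokinase downstream of Khk, fell by 0.83 ± 0.15 with it, and Gpd1, which links glycolysis to glycerol, fell by 1.43 ± 0.20 and rose by 0.78 ± 0.20 with 326E. Galt, of galactose use, was at 12.6 to 18.1, 5.48 to 6.20 and 8.98 to 10.2 FPKM, a fall of 1.17 ± 0.13 on the diet and a rise of 0.64 ± 0.13 with 326E. Of 11 genes of malate and aspartate steps 4 fell on the diet (36.4% called) and 1 rose with 326E (9.09% called), both below the shares of all genes. The 1 that rose, Me1, malic enzyme, was at 38.2 to 59.1 FPKM in chow, 10.02 to 11.04 FPKM in vehicle and 80.0 to 88.9 FPKM in 326E livers. Mdh1, the cytosolic malate dehydrogenase, fell by 1.14 ± 0.12 on the diet, from 327 to 349 FPKM to 139 to 164 FPKM.

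Of 33 regulators of glucose genes 8 rose and 10 fell on the diet, and 2 rose and 4 fell with 326E. These are 54.5% and 18.2% called, beside 41.6% and 11.5% of all genes tested. Mlxipl, which encodes ChREBP, fell by 1.42 ± 0.13, from 34.3, 34.4 and 29.6 FPKM to 11.6, 11.3 and 11.9 FPKM, and rose by 0.71 ± 0.13 with 326E, to 21.6, 22.1 and 15.7 FPKM. Srebf1, a factor of lipid and glucose enzyme genes, fell by 1.07 ± 0.26 and rose by 1.42 ± 0.26. In the same comparison the ChREBP targets Pklr (-0.40 ± 0.14) and Khk (-0.42 ± 0.15) had values below 0 and did not pass. Igfbp1, a gene held down by insulin, rose by 3.71 ± 0.40 and fell by 2.64 ± 0.40, Myc, a growth factor-induced transcription factor, rose by 3.24 ± 0.57 on the diet, and Dusp1, an early response gene, rose by 1.85 ± 0.48 and fell by 2.18 ± 0.48.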

How the data were processed

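Poly(A)-selected mRNA libraries were made, per the labels' protocols. Reads were aligned and counted with HISAT2 and featureCounts on mm10, per the submitters' processing notes. Versions, annotation, strand setting and the treatment of multi-mapping reads are not given in the sources used here. The values are FPKM, which the authors computed per gene and library and deposited as 1 table. All 9 sample columns were matched to samples by name and 0 were left unmatched. Whole reads could be read back from the FPKM steps (100% of values within 0.01 of a whole number), and the depths come from them.

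From the deposited FPKM, log2(FPKM + 1) was fitted over all 9 libraries with limma 3.58.1 (R 4.3.3, with variance trend) on the 13737 of 54532 genes that reached 0.5 FPKM in 3 or more libraries. P-values were Benjamini-Hochberg adjusted over all genes tested, and a gene was called below 0.05. Each of the 34 genes is reported. The genes and lists were chosen with earlier results of these data known. Of the further lists of pathway genes, up to 2 genes with the largest called change in each direction are named, except 1 that is not reported here. Others named were chosen after their values were seen. Isozyme ratios were tested with exact permutation tests over libraries. Alternatives were other pseudocounts, filters and scalings, voom on the reads, a fit of each comparison alone and leaving out each library. Scripts used Python 3.11.15, pandas 2.3.3, numpy 2.4.6, scipy 1.17.1 and matplotlib 3.10.9, and the fit was tested on simulated data. Windows shared between genes came from GENCODE transcripts and promoter bases from RefSeq (GRCm38.p6).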

Additional observations from a re-analysis of the deposited data

How the results depend on the processing

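Of 1997 recomputed fold changes of the 34 genes, 1821 kept direction and side of the threshold, 89 lost the threshold, 33 gained it, 52 moved and 2 reversed. With total reads, 5 genes in place of 8 were lower in vehicle against chow and 6 in place of 10 in 326E against chow. With quantile normalization 5 in place of 8 were higher in 326E against chow, and the reversed values in vehicle against chow were 0.0573 for Fbp1 and 0.42 for Ldha. In 326E against vehicle, 6 genes were lower in the report, 9 with quantile normalization, 8 with voom, 3 with a pseudocount of 0.1, 2 with no filter, and 1 to 6 when 1 library was left out (2 without vehicle replicate 3, 1 without 326E replicate 2 and 2 without 326E replicate 3). With only vehicle replicate 2 kept, chosen after seeing the data, 2 were lower; that lone library is assumed to vary like the other groups, so this says nothing about stability. The p of the phosphofructokinase ratio ran from 0.0143 to 0.05 and that of enolase from 0.0321 (without chow replicate 1) to 0.268 when 1 library was left out. The cause was not tested. After subtraction of the group means, same-numbered libraries correlated at -0.24 to 0.024 over 9 pairs. Pairs with different numbers ran from -0.18 to 0.19. With 3 libraries per group this cannot decide whether the numbers mark a pairing or a batch. With the replicate number as a block, exact permutation tests gave p = 0.0556 for the lactate dehydrogenase ratio and p = 0.0833 for the PEP carboxykinase ratio. The limma fit with that block called 4 genes lower in 326E against vehicle: Hk2 (adjusted p = 0.0634), Pck2 (0.0641) and Pfkp (0.0817) lost their calls and Ppp1r3b (0.0226) gained one. Depth limits Hk2 and Eno3, which rest on 7 to 179 and 13 to 67 reads per library.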
